A study of Mus musculus with 33 samples.

Results

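A set of 8 genes of the YAP pathway was followed through the loss of Nudt21 in cultured mouse esophageal basal cells. They were taken by name from the 12348 genes of the deposited mRNA table and, where listed, from the poly(A) site table, and all 8 were in the mRNA table. Yap1 encodes the co-activator itself and Tead1 a DNA-binding partner of it. Lats2, a kinase that phosphorylates YAP, and Ajuba and Amotl2, junction proteins that bind LATS kinases and YAP respectively, are regulators. Cyr61 and Ctgf, secreted matricellular proteins of the CCN family, and F3, the membrane receptor known as tissue factor that starts blood coagulation, are known as targets. Lats2 and Amotl2 are known as targets as well.

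The cells carried floxed Nudt21, which encodes a subunit of the cleavage factor that sets where messenger RNAs end. The labels of the poly(A) site libraries give the genotype as Nudt21 fl/fl; R26CreER, where CreER is a Cre made active by 4-hydroxytamoxifen (4OHT). Control cells, called day 0, received ethanol for 4 days. KO cells received 0.05 µM 4OHT and were taken after 2, 4 or 6 days. Hypomorph cells received 0.05 µM 4OHT together with 50 ng/ml doxycycline and were taken after 4 or 6 days. There were 3 mRNA libraries in each of these 6 groups, 18 in all, and 3 poly(A) site libraries for each of day 0, KO day 4 and hypomorph day 4. Doxycycline was in every hypomorph culture and in no other, so its own effect and the hypomorph state cannot be told apart, and its action on Nudt21 is not described in the sources used here. All groups, day 0 included, grew in medium with 10 µM Y-27632 (an inhibitor of the ROCK kinases), 1 µM CHIR99021 (an inhibitor of GSK3), and 1 µM each of A83-01 and DMH-1 (inhibitors of TGF-beta and BMP receptors), and all were kept below a fixed maximum density in exponential growth and harvested by scraping or with the enzyme mix TrypLE. There was 1 control time only, so days 2 and 6 have no control of their own day. The labels do not say that replicates were separate cultures, so p-values measure the spread between these samples, which may be technical.

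In the Hippo pathway the kinases MST and LATS, with their partners SAV and MOB, phosphorylate the co-activators YAP and TAZ and keep them in the cytoplasm. When the pathway is off, for example in sparse, spread or stretched cells, YAP and TAZ enter the nucleus, bind TEAD factors and switch on genes such as Cyr61 and Ctgf. Cell contact and actomyosin tension act on this switch, and in stratified epithelia nuclear YAP is a feature of the basal layer. Because the switch is set largely by the phosphorylation and location of the protein, the abundance of Yap1 mRNA does not measure YAP activity.

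The promoters are shown first because YAP acts on DNA through TEAD factors and because the levels of Cyr61 and F3 had the widest ranges of the set. Promoters were taken from RefSeq on GRCm38.p6, and 6 of the 8 genes had 1 or more in the table, 7 promoters in all. Tead1 and Ctgf had none. The 250 bases before each transcript start were searched on both strands for 4 motifs. The core of the TEAD motif was searched as GGAATG. The AP-1 motif, bound by dimers of the FOS and JUN families, was searched as TGANTCA, where N is any base. The TATA box, which positions the start of transcription, was searched as TATAAA, and the CArG box of SRF by its usual consensus. No matches printed here overlap each other. Cyr61, known in RefSeq as Ccn1, is on chromosome 3 at 145646971 to 145649985, and its promoter, chr3:145649986-145650235 on the minus strand, held a TEAD core on the reverse strand 103 to 98 bases before the start and a TATA box 25 to 20 bases before it, both in capitals.
Cyr61: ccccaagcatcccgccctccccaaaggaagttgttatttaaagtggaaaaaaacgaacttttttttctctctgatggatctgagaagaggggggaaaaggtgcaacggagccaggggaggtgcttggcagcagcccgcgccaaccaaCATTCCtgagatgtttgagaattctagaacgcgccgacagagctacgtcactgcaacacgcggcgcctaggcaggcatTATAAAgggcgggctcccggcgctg
F3 is on chromosome 3 at 121723537 to 121735052, and its promoter, chr3:121723287-121723536 on the plus strand, held no TEAD core but a pair of AP-1 motifs, 146 to 140 and 135 to 129 bases before the start, in capitals.
F3: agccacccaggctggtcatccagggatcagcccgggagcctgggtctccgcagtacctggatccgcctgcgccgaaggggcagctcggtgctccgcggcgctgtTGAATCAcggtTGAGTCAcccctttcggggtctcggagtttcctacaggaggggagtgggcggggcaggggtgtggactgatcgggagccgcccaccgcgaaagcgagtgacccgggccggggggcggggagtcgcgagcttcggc
Around the TEAD cores of the other members, in capitals with 10 bases on either side, the sequences were these: Yap1 at chr9:8004722-8004747 (minus strand), Amotl2 at chr9:102717729-102717754 (plus strand), and Ajuba at chr14:54577832-54577857 and chr14:54577810-54577835 (minus strand). CATTCC is the core read on the other strand.
Yap1: ggagtctgcaGGAATGtagcgacgcg
Amotl2: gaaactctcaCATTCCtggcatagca
Ajuba first: ttgatggataCATTCCacagtgcccc
Ajuba second: cccctccgcgCATTCCaactgtaaac
The Yap1 and Amotl2 transcripts that start here begin inside their annotated genes, of which Amotl2 runs from 102717091 to 102733418. A TEAD core was thus in the promoters of 4 members, Yap1, Cyr61, Amotl2 and Ajuba, and 12.6% of all 32817 promoters held one in the same window. AP-1 motifs were in 6.75% of all promoters, TATA boxes in 12.4% and CArG boxes in 1.47%, and no member had a CArG match. The letters of Lats2's 2 promoters held none of the 4. A match describes letters and not binding, and a missing match says only that these letters were not in the window.

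The deposited mRNA values are called scaled CPM here: the authors' CPM, scaled further by factors of their own. Whole reads could be recovered from them and came to between 16.3 M and 91.4 M per library, M standing for 1e+06 reads. The smallest count behind any member was 58 reads, for Ctgf in 1 KO day 6 library. Nudt21 stood at 12.2, 14.2 and 12.2 scaled CPM at day 0, 3.21, 2.77 and 3.09 at KO day 2, 2.70, 2.44 and 3.95 at KO day 4 and 2.01, 1.34 and 1.78 at KO day 6. In the hypomorph it stood at 4.91, 6.25 and 3.85 at day 4 and 3.94, 0.999 and 3.38 at day 6. The 2 states overlapped at day 4, where the KO library at 3.95 lay above the hypomorph library at 3.85. At day 6 they overlapped only through the hypomorph library at 0.999, which held 16 Nudt21 reads. Basal markers were high in every group, with a summed level of 28024 to 33730 scaled CPM over 8 genes. Suprabasal markers (7 of 8 in the table, led by Krt13) summed to 849 to 2909 at day 0, 4855 to 6592 at KO day 6 and 1353 to 1555 at hypomorph day 6. Krt13 reached 5536 in its highest library, and the highest of the others was Sbsn at 574. Leukocyte markers (3 of 6 in the table, mostly Cd68) summed to 76.4 to 81.3 at day 0, 210 to 218 at KO day 4, 165 to 188 at hypomorph day 4, 460 to 499 at KO day 6 and 472 to 512 at hypomorph day 6. Over the 18 libraries Cd68 ran from 62.9 to 510, Ptprc from 0 to 15.9 and Laptm5 from 0 to 3.52. Tyrobp, Fcer1g and Lyz2 were not in the table. Liver transcripts varied within groups: Alb was above 100 scaled CPM in 7 of 18 libraries, 2 at day 0, 1 at KO day 2, 2 at KO day 4, 2 at KO day 6 and none in the hypomorph. These are called the Alb libraries, and counts are also given without them. In bulk samples fewer cells of a type and less RNA per cell cannot be told apart.

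Set side by side per kilobase of the deposited gene length, the members at day 0 ran from Ajuba at 107 ± 5.71 scaled CPM per kb (SD, n = 3) down to Lats2 at 4.83 ± 0.503. Yap1 was at 44.6 ± 3.31, Tead1 at 20.9 ± 2.75, Cyr61 at 17.99 ± 2.92, F3 at 16.7 ± 3.56 and Amotl2 at 15.8 ± 0.538. Ctgf, at 5.002 ± 0.144, was as low as Lats2 within their spread. Over the 6 groups the highest mean was 1.19 times the lowest for Ajuba, 1.61 for Lats2, 1.69 for Yap1, 1.79 for Amotl2, 2.42 for Tead1, 5.02 for Ctgf, 9.44 for F3 and 10.3 for Cyr61. The 3 secreted or membrane targets therefore had the widest ranges of the set.

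**Figure D1:**
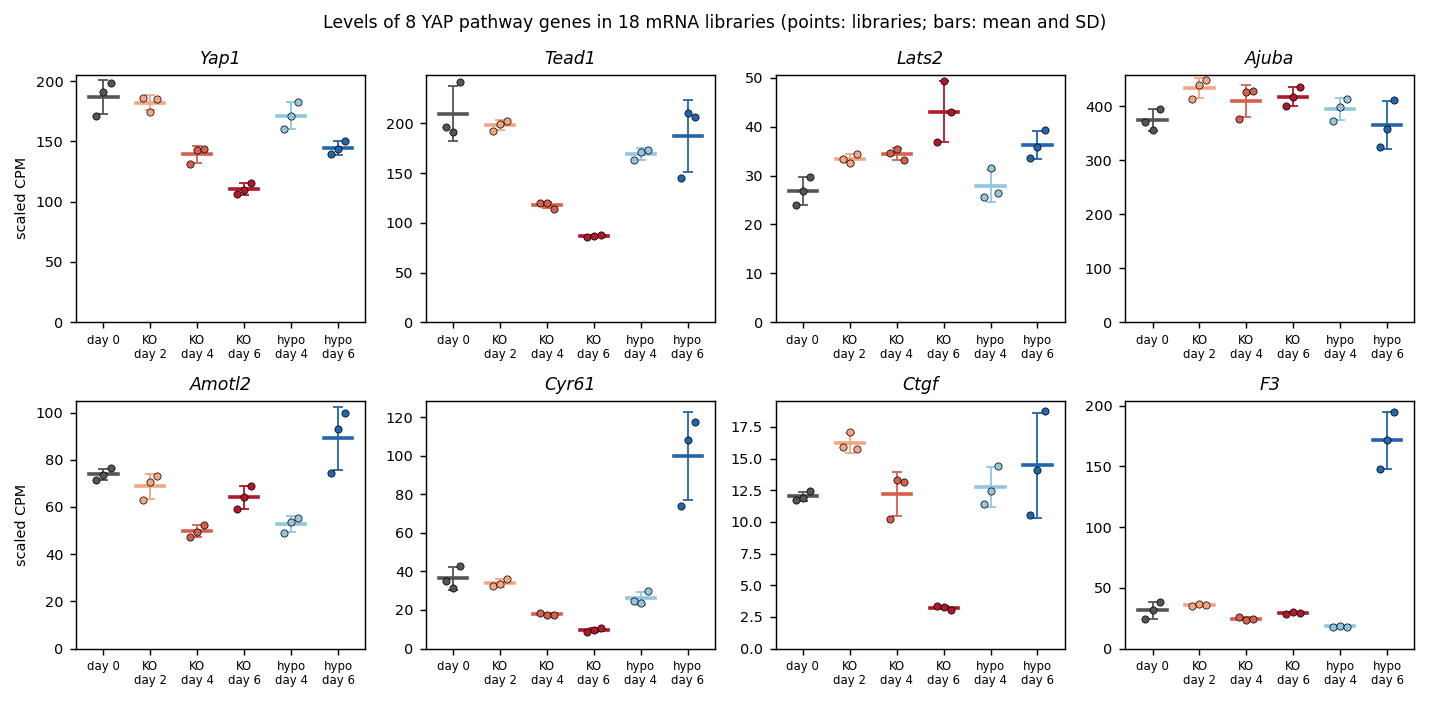
Level of each member in every mRNA library, in scaled CPM on a linear axis from 0, by group; points are libraries, thick bars group means and thin bars SD over 3 libraries (hypo stands for hypomorph). Cyr61 and F3 are highest at hypomorph day 6, Ctgf is lowest at KO day 6, and Yap1 and Tead1 step down with days of KO.

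Yap1 mRNA fell in the KO from day 4 on, and at day 6 it fell less in the hypomorph. The gene lies on chromosome 9, 7931999 to 8004638 of GRCm38, the build of every position given here. Its level was 171, 191 and 198 scaled CPM at day 0, 186, 175 and 185 at KO day 2, 131, 143 and 144 at KO day 4 and 106, 109.5 and 116 at KO day 6. In the hypomorph it was 160.1, 171 and 182 at day 4 and 139, 144 and 151 at day 6. Day 0 and KO day 2 overlapped, and every KO day 4 and KO day 6 library was below every day 0 library. Differences are given on the scale of log2(scaled CPM + 0.5) with the standard error, from limma with Benjamini-Hochberg adjustment over all 12344 genes tested. Against day 0, Yap1 was -0.42 ± 0.07, adjusted p = 2.61e-05 at KO day 4 and -0.75 ± 0.07, adjusted p = 3.48e-10 at KO day 6, a fold of 0.594 on that scale. Hypomorph day 6 gave -0.37 ± 0.07, adjusted p = 6.83e-05. Hypomorph day 4 gave -0.12 ± 0.07, adjusted p = 0.199, which did not pass. Its paralogue Wwtr1, which encodes TAZ, stood at 51.0, 53.6 and 53.8 scaled CPM at day 0, 81.2, 64.7 and 77.8 at KO day 6 and 88.8, 83.9 and 97.8 at hypomorph day 6. It rose in both states at day 6, by 0.49 (adjusted p = 1.73e-05) in the KO and 0.76 (adjusted p = 1.41e-08) in the hypomorph.

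Tead1 also fell in the KO from day 4 on. It lies on chromosome 7, 112679356 to 112906784. The level was 197, 191 and 241 scaled CPM at day 0, 193, 199.9 and 202 at KO day 2, 119.8, 119 and 114 at KO day 4 and 85.7, 86.9 and 87.3 at KO day 6. The hypomorph libraries were at 163, 171 and 174 at day 4 and 145, 211 and 206 at day 6. The KO day 6 libraries lay within 85.7 to 87.3, far below the lowest day 0 library. In the hypomorph at day 6 the library at 145, replicate 1, stood below the others. That library was also the lowest of its group for every other member, and the cause was not tested. Tead1 was -0.82 ± 0.10, adjusted p = 3.20e-07 at KO day 4 and -1.26 ± 0.10, adjusted p = 3.27e-11 at KO day 6, a fold of 0.417. At hypomorph day 4 it was -0.30 ± 0.10, adjusted p = 0.0244, a call that was lost without day 0 replicate 3 or without any 1 of the hypomorph day 4 libraries (adjusted p = 0.0504 to 0.167). At hypomorph day 6 it was -0.17 ± 0.10, adjusted p = 0.132, and without replicate 2 or replicate 3 of that group the difference passed.

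Of the regulators, Lats2 rose in the KO and at day 6 of the hypomorph, Amotl2 dipped at day 4 and Ajuba moved little. Lats2, the kinase, lies on chromosome 14, 57689662 to 57746212. Its level was 24.1, 26.8 and 29.6 scaled CPM at day 0, 33.4, 32.5 and 34.4 at KO day 2, 34.7, 35.4 and 33.1 at KO day 4 and 36.8, 49.4 and 43.1 at KO day 6. Hypomorph libraries had 25.6, 31.6 and 26.5 at day 4 and 33.6, 35.9 and 39.4 at day 6. All KO libraries, from day 2 on, were above all day 0 libraries. Lats2 was 0.36 ± 0.11, adjusted p = 0.00826 at KO day 4, 0.67 ± 0.11, adjusted p = 3.69e-06 at KO day 6 and 0.43 ± 0.11, adjusted p = 9.95e-04 at hypomorph day 6. At KO day 2 it was 0.32 ± 0.11, adjusted p = 0.0405, a call that held in 9 of 20 alternatives and was lost without day 0 replicate 1 or 2 or any 1 of the KO day 2 libraries (adjusted p = 0.0727 to 0.194). The KO day 4 call was lost without day 0 replicate 1 (adjusted p = 0.0587). Hypomorph day 4 gave 0.05 ± 0.11, adjusted p = 0.747, which did not pass.

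Amotl2, an angiomotin that tethers YAP at junctions, lies on chromosome 9, 102717091 to 102733418. Its level was 71.3, 73.5 and 76.3 scaled CPM at day 0, 62.7, 70.5 and 73.0 at KO day 2, 47.3, 49.5 and 52.2 at KO day 4 and 59.0, 64.3 and 68.9 at KO day 6. With doxycycline added it was 49.0, 53.7 and 55.3 at day 4 and 74.4, 92.8 and 99.9 at day 6. Both day 4 groups lay below day 0 with no overlap, and the day 6 libraries of the hypomorph reached 99.9. Amotl2 was -0.57 ± 0.09, adjusted p = 1.73e-05 at KO day 4 and -0.48 ± 0.09, adjusted p = 2.78e-04 at hypomorph day 4. At KO day 6 it was -0.20 ± 0.09, adjusted p = 0.0568, which did not pass, though it did without KO day 6 replicate 3 (adjusted p = 0.0337). Hypomorph day 6 gave 0.26 ± 0.09, adjusted p = 0.0176, a call that held in 13 of 20 alternatives and was lost without day 0 replicate 1 or hypomorph day 6 replicate 2 or 3 (adjusted p = 0.0583 to 0.137).

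Ajuba, a LIM protein of cell junctions that binds LATS kinases, lies on chromosome 14, 54567469 to 54577661. Its level was 371, 356 and 395 scaled CPM at day 0, 414, 438 and 449 at KO day 2, 376, 426 and 427 at KO day 4 and 401, 416 and 435 at KO day 6. The hypomorph gave 373, 398 and 414 at day 4 and 324, 358 and 411 at day 6. Every pair of groups next to each other in level overlapped, but all KO day 2 and KO day 6 libraries were above all day 0 libraries. No comparison with day 0 passed, the nearest being KO day 2 at 0.21 ± 0.08, adjusted p = 0.0544, with a 95% interval of 0.05 to 0.37. Without day 0 replicate 3, Ajuba passed at KO day 2 (adjusted p = 0.0411) or at KO day 6 (adjusted p = 0.0459).

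Cyr61 fell in the KO and rose at day 6 of the hypomorph. Its level was 34.9, 31.5 and 43.0 scaled CPM at day 0, 32.4, 33.3 and 36.2 at KO day 2, 18.4, 17.5 and 17.5 at KO day 4 and 8.82, 9.40 and 10.8 at KO day 6. The hypomorph stood at 24.5, 23.6 and 30.0 at day 4 and 73.9, 108 and 117 at day 6. The KO day 6 libraries were the lowest of all 18 and the hypomorph day 6 libraries the highest, with no overlap with any other group. Cyr61 was -1.01 ± 0.14, adjusted p = 1.41e-06 at KO day 4 and -1.85 ± 0.14, adjusted p = 4.77e-12 at KO day 6, a fold of 0.277. At hypomorph day 4 it was -0.48 ± 0.14, adjusted p = 0.0101, and that call was lost without day 0 replicate 3 or hypomorph day 4 replicate 2 (adjusted p = 0.0567 to 0.0774). By hypomorph day 6 it was 1.43 ± 0.14, adjusted p = 1.07e-09, a fold of 2.69.

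Ctgf, known in RefSeq as Ccn2, lies on chromosome 10, 24595442 to 24598683 and fell at KO day 6. Its level was 11.8, 11.9 and 12.4 scaled CPM at day 0, 15.9, 17.1 and 15.7 at KO day 2, 10.2, 13.3 and 13.2 at KO day 4 and 3.38, 3.25 and 3.08 at KO day 6. Hypomorph values were 11.4, 12.5 and 14.4 at day 4 and 10.5, 14.1 and 18.8 at day 6. The KO day 6 libraries stood apart from the other 5 groups, none of which fell below 10.2. Ctgf was -1.75 ± 0.16, adjusted p = 1.44e-10 at KO day 6, a fold of 0.298. At KO day 4 it was 0.02 ± 0.16, adjusted p = 0.947 and at KO day 2 0.42 ± 0.16, adjusted p = 0.0698, neither of which passed. At hypomorph day 6 it was 0.22 ± 0.16, adjusted p = 0.232, and without replicate 1 of that group it passed (adjusted p = 0.0223). The other 4 CCN family members, Nov, Wisp1, Wisp2 and Wisp3, were not in the table.

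F3 was low at hypomorph day 4 and rose at hypomorph day 6. Its level was 24.6, 31.5 and 38.0 scaled CPM at day 0, 34.7, 37.0 and 36.1 at KO day 2, 25.7, 23.6 and 24.5 at KO day 4 and 28.6, 29.9 and 29.0 at KO day 6. In hypomorph cells it was 17.8, 18.8 and 17.8 at day 4 and 148, 172 and 195 at day 6. Day 0 was spread, from 24.6 to 38.0, and KO day 6 lay inside that range, whereas hypomorph day 6 lay far above every other library. F3 was -0.75 ± 0.11, adjusted p = 1.28e-05 at hypomorph day 4 and 2.45 ± 0.11, adjusted p = 9.28e-17 at hypomorph day 6, a fold of 5.45. At KO day 6 it was -0.08 ± 0.11, adjusted p = 0.534, with a 95% interval of -0.32 to 0.15. The KO day 4 value, -0.32 ± 0.11, adjusted p = 0.0218, held in 14 of 20 alternatives and was lost without day 0 replicate 2 or 3 or KO day 4 replicate 2 or 3 (adjusted p = 0.0503 to 0.217).

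Counted together against day 0, 1 of 8 members passed at KO day 2 (Lats2, higher), where 19.0% of the 12344 genes tested passed, 11.7% as higher and 7.29% as lower. At KO day 4, 6 of 8 passed, 5 lower and Lats2 higher, where 46.0% of the 12344 genes tested passed, 23.7% as higher and 22.3% as lower. At KO day 6, 5 of 8 passed, 4 lower and Lats2 higher, where 71.1% of the 12344 genes tested passed, 33.6% as higher and 37.5% as lower. At hypomorph day 4, 4 of 8 passed, all lower, where 31.7% of the 12344 genes tested passed, 17.5% as higher and 14.1% as lower. At hypomorph day 6, 5 of 8 passed, Yap1 lower and 4 higher, where 67.2% of the 12344 genes tested passed, 35.9% as higher and 31.3% as lower. Without the 7 Alb libraries, which leaves 1 library each at day 0, KO day 4 and KO day 6, each assumed to vary like the other groups, the counts were 0, 4, 5, 2 and 4 in the same order. Of the calls lost, that at KO day 2 had a difference of 0.33 for Lats2 (0.32 with all libraries), those at KO day 4 had 0.39 for Lats2 (0.36 with all libraries) and -0.41 for F3 (-0.32 with all libraries), and that at hypomorph day 6 had 0.26 for Amotl2 (0.26 with all libraries). At hypomorph day 4, the calls lost had differences that shrank by over 1.5 times, to -0.17 for Tead1 (-0.30 with all libraries) and -0.28 for Cyr61 (-0.48 with all libraries). Calls over all genes also fell by over 1.5 times in that fit at KO day 2, KO day 4 and hypomorph day 4. At KO day 6 the suprabasal marker sum and, in both states at day 4 and day 6, the Cd68-led leukocyte sum were above their day 0 ranges; their part in the members' values was not tested. In the authors' deposited table of comparisons with day 0, made from the same libraries and so not independent, the members had the same call in 40 of 40 pairs of gene and comparison.

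**Figure D2:**
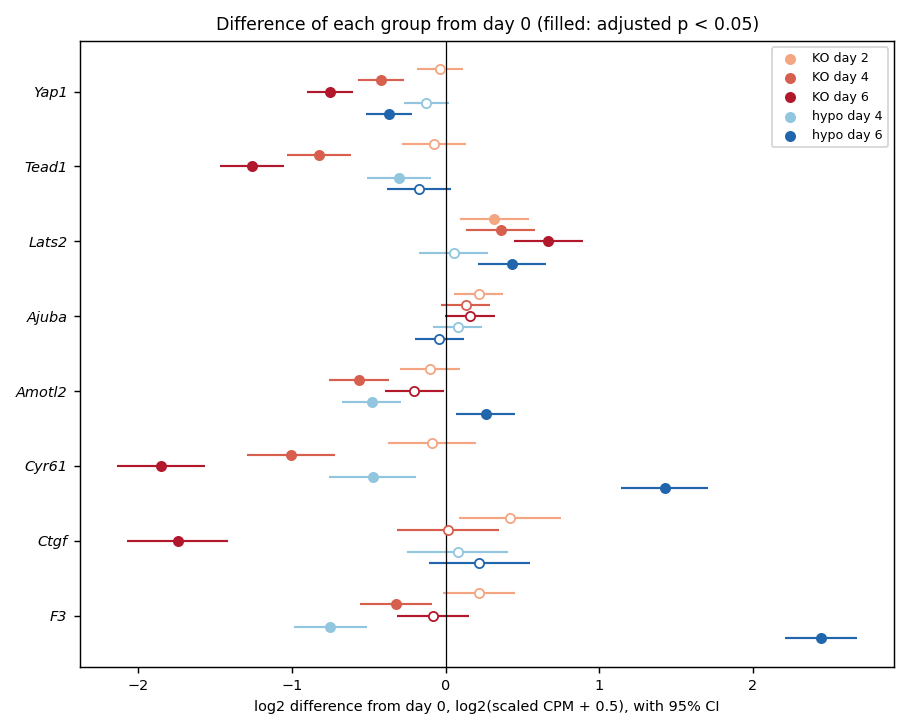
Log2 difference of each member against day 0 in each of the 5 comparisons; points are limma estimates, bars 95% intervals, and filled points have an adjusted p under 0.05. Cyr61 and Ctgf are lowest at KO day 6, and Cyr61 and F3 rise at hypomorph day 6.

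Between consecutive days Yap1, Tead1 and Cyr61 fell at both steps of the KO. From KO day 2 to day 4, Yap1, Tead1, Cyr61, Amotl2 and F3 were lower, 5 of 8, where 31.7% of the 12344 genes tested passed, 12.9% as higher and 18.9% as lower. Cyr61 was -0.92 ± 0.14, adjusted p = 1.62e-05 and Tead1 -0.75 ± 0.10, adjusted p = 4.27e-06. From KO day 4 to day 6, 6 of 8 passed, where 59.7% of the 12344 genes tested passed, 26.6% as higher and 33.1% as lower. Ctgf fell by 1.76 ± 0.16, adjusted p = 2.99e-10 and Cyr61 by 0.85 ± 0.14, adjusted p = 8.42e-06 while Yap1 was -0.33 ± 0.07, adjusted p = 2.94e-04 and Tead1 -0.44 ± 0.10, adjusted p = 5.73e-04. Amotl2 rose, at 0.36 ± 0.09, adjusted p = 0.00170, as did Lats2, at 0.31 ± 0.11, adjusted p = 0.0154, whose call was lost without KO day 4 replicate 3 or KO day 6 replicate 2 (adjusted p = 0.0514 to 0.125). From hypomorph day 4 to day 6, 5 of 8 passed, where 61.9% of the 12344 genes tested passed, 31.9% as higher and 30.0% as lower. F3 rose by 3.20 ± 0.11, adjusted p = 8.07e-19, Cyr61 by 1.90 ± 0.14, adjusted p = 5.86e-12, Amotl2 by 0.74 ± 0.09, adjusted p = 1.10e-07 and Lats2 by 0.38 ± 0.11, adjusted p = 0.00354, while Yap1 was -0.24 ± 0.07, adjusted p = 0.00511. Tead1 was 0.13 ± 0.10, adjusted p = 0.282 and passed without hypomorph day 6 replicate 1 (adjusted p = 0.00169). Leaving out the Alb libraries left 1 library each at KO day 4 and KO day 6. Fewer of all genes then passed at both KO steps. The calls of Amotl2 at the first step and of Yap1, Tead1 and Lats2 at the second were lost. Their differences were then -0.45 for Amotl2 (-0.46 with all libraries), -0.30 for Yap1 (-0.33 with all libraries), -0.45 for Tead1 (-0.44 with all libraries) and 0.28 for Lats2 (0.31 with all libraries).

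The hypomorph and the KO were compared on the same day, with the same 4OHT. At day 4 the differences were small: Yap1 (0.30 ± 0.07, adjusted p = 0.00353), Tead1 (0.52 ± 0.10, adjusted p = 4.78e-04) and Cyr61 (0.53 ± 0.14, adjusted p = 0.00627) were higher in the hypomorph, and F3 (-0.43 ± 0.11, adjusted p = 0.00723) and Lats2 (-0.30 ± 0.11, adjusted p = 0.0398) were lower. Those 5 of 8 stand beside a background in which 24.5% of the 12344 genes tested passed, 13.9% as higher and 10.7% as lower, and 1 of them, Tead1, passed without the Alb libraries, where the other differences were 0.26 for Yap1 (0.30 with all libraries), 0.56 for Cyr61 (0.53 with all libraries), -0.37 for F3 (-0.43 with all libraries) and -0.35 for Lats2 (-0.30 with all libraries). The Lats2 call was lost without any 1 of the KO day 4 libraries or hypomorph day 4 replicate 1 or 3 (adjusted p = 0.0583 to 0.158), and the Cyr61 call without hypomorph day 4 replicate 3 (adjusted p = 0.0524).

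At day 6 the differences were wide. Cyr61 was 9.71 times as high in the hypomorph as in the KO (3.28 ± 0.14, adjusted p = 1.94e-16), F3 5.77 times (2.53 ± 0.11, adjusted p = 1.69e-16) and Ctgf 3.91 times (1.97 ± 0.16, adjusted p = 3.17e-11). Tead1 (1.09 ± 0.10, adjusted p = 1.11e-09), Amotl2 (0.46 ± 0.09, adjusted p = 1.14e-04) and Yap1 (0.39 ± 0.07, adjusted p = 4.18e-05) were higher as well. Ajuba was lower (-0.20 ± 0.08, adjusted p = 0.0269), a call lost without KO day 6 replicate 2 or 3 or hypomorph day 6 replicate 1 or 2 (adjusted p = 0.0504 to 0.179). Lats2 was -0.24 ± 0.11, adjusted p = 0.0573, which did not pass, though it did without KO day 6 replicate 1 or hypomorph day 6 replicate 3 (adjusted p = 0.0116 to 0.0352). In all, 7 of 8 passed, and 6 without the Alb libraries, Ajuba being lost (-0.26, adjusted p = 0.0858), where 64.7% of the 12344 genes tested passed, 37.7% as higher and 27.0% as lower. Nudt21 itself overlapped between these groups through 1 hypomorph library, as given above. The suprabasal marker sum did not overlap, at 4855 to 6592 in the KO and 1353 to 1555 in the hypomorph, and its part in the result was not tested.

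The change of the hypomorph-to-KO difference from day 4 to day 6 was tested as an interaction. It passed for 5 of 8 members, all higher: F3 (2.95 ± 0.16, adjusted p = 1.41e-13), Cyr61 (2.75 ± 0.20, adjusted p = 4.95e-11), Ctgf (1.90 ± 0.23, adjusted p = 1.74e-07), Tead1 (0.57 ± 0.14, adjusted p = 0.00224) and Amotl2 (0.38 ± 0.13, adjusted p = 0.0220), where 45.7% of the 12344 genes tested passed, 27.4% as higher and 18.2% as lower. Without the Alb libraries 3 were past the threshold, F3, Cyr61 and Ctgf, with Tead1 at 0.58, adjusted p = 0.0544. The Amotl2 call held in 19 of 26 alternatives and was lost without KO day 4 replicate 3, KO day 6 replicate 1, hypomorph day 4 replicate 1 or hypomorph day 6 replicate 3 (adjusted p = 0.0543 to 0.0821). Yap1 was 0.09 ± 0.10, adjusted p = 0.510, with a 95% interval of -0.12 to 0.30. Scaling to the library total alone, an alternative chosen after seeing the data, moved the median of all genes from 0.07 to -0.13 in the day 6 comparison and from 0.09 to -0.12 in the interaction, and the members' differences stand relative to that.

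**Figure D3:**
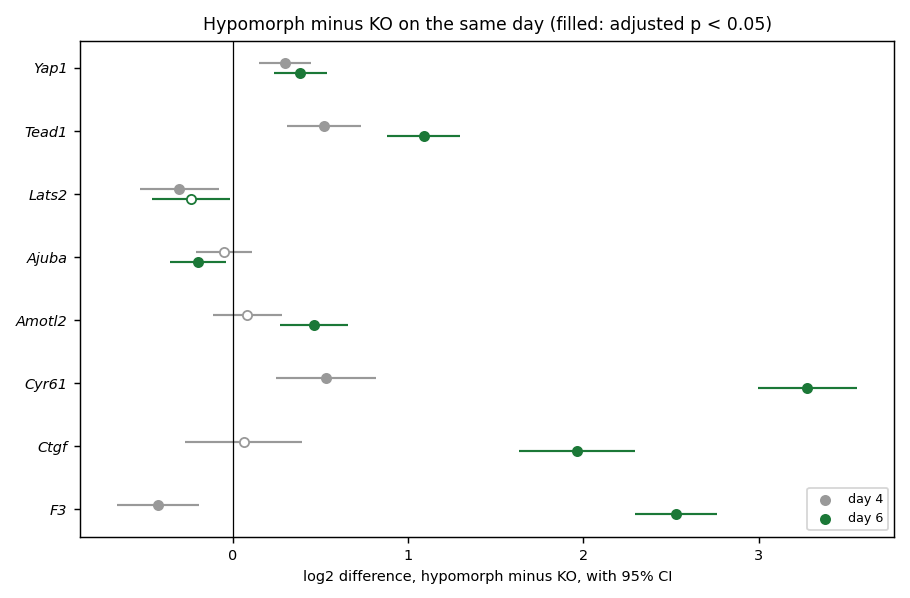
Log2 difference between hypomorph and KO for each member at day 4 and at day 6, with 95% intervals; filled points have an adjusted p under 0.05. Cyr61, F3 and Ctgf are the 3 with the widest differences at day 6.

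The rest of the pathway gave no single direction in the KO. Of the 14 other targets measured from the 22-gene signature of the field, 5 were higher and 8 lower at KO day 6, beside 33.6% and 37.5% of all genes. Their median was -0.46 beside -0.03 for all genes. Ankrd1, Foxf2 and Ccdc80 were not in the table. Ptpn14, one of the 14 targets, is also counted below with the upstream regulators. Fewer of these 14 passed as lower without the Alb libraries, which left 1 library each at day 0 and KO day 6. Gadd45a, a growth arrest gene, rose by 1.88 (adjusted p = 2.77e-14) and Igfbp3, which binds insulin-like growth factors, by 1.502 (adjusted p = 1.68e-16), whereas Dock5, an exchange factor for Rac, was -1.53 (adjusted p = 1.66e-12). Nt5e, an ectonucleotidase, was 1.02 (adjusted p = 1.74e-13). The 4 named had the smallest p of the 14, though most of those called at KO day 6 were lower. At hypomorph day 6 the same 14 gave 5 higher and 6 lower, beside 35.9% and 31.3% of all genes (median -0.03, all genes 0.03). In the hypomorph against the KO at day 6 they gave 6 higher and 4 lower, beside 37.7% and 27.0% of all genes (median 0.13, all genes 0.07), and 6 lower with TMM scaling, edgeR, DESeq2 or library total. Igfbp3 was -2.06 (adjusted p = 1.80e-18), Asap1 -0.68 (adjusted p = 1.84e-07), Rbms3 1.86 (adjusted p = 1.31e-08) and the receptor tyrosine kinase Axl 0.83 (adjusted p = 2.26e-10).

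Among the kinases and their partners, 1 of 6 was higher and 3 lower at KO day 6, beside 33.6% and 37.5% of all genes (median -0.28, all genes -0.03). Mob1a, a partner of LATS, was -1.17 (adjusted p = 3.55e-14), the MST kinase Stk4 -0.84 (adjusted p = 1.90e-10) and the scaffold Sav1 -0.52 (adjusted p = 1.85e-05), while Mob1b was 0.25 (adjusted p = 0.0109). The list had 2 lower genes without the Alb libraries, and Mob1b no longer passed. In the hypomorph against the KO at day 6, 3 were higher and 2 lower, beside 37.7% and 27.0% of all genes, with Stk4 at 0.71 (adjusted p = 9.04e-09) and Sav1 at -0.88 (adjusted p = 6.17e-09). Among the 14 other upstream regulators at KO day 6, the angiomotin Amot was 1.52 (adjusted p = 3.74e-11) and the kinase Map4k4 1.22 (adjusted p = 2.67e-14). Nf2, which encodes merlin, was -0.73 (adjusted p = 7.01e-10). The 14 gave 7 higher and 6 lower at KO day 6, beside 33.6% and 37.5% of all genes. That count was 5 higher and 2 lower without the Alb libraries. At day 6 in the hypomorph against the KO they gave 4 higher and 7 lower, beside the shares given for that comparison, with Amot at -1.38 (adjusted p = 5.81e-10). Of the nuclear factors, the TEAD paralogues Tead4 at -0.83 (adjusted p = 7.31e-09) and Tead3 at -0.52 (adjusted p = 4.80e-04) were lower at KO day 6, whereas the TEAD competitor Vgll4 at 0.70 (adjusted p = 5.05e-09) and Wwtr1 at 0.49 (adjusted p = 1.73e-05) were higher. In the hypomorph against the KO, Tead4 was 1.40 (adjusted p = 5.13e-13) and Vgll3 0.99 (adjusted p = 1.52e-10), Wwtr1 was 0.28 (adjusted p = 0.00779) and Vgll4 was -0.34 (adjusted p = 4.83e-04).

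Targets of SRF and its MRTF partners, the actin-responsive set that shares cues with YAP, were mostly higher at hypomorph day 6. Of 12 measured, 11 were higher and 1, Tpm1 at -0.27 (adjusted p = 0.00365), was lower, beside 35.9% and 31.3% of all genes (median 0.44, all genes 0.03). The count was 6 higher and 1 lower when scaled to the library total and 9 higher without the Alb libraries. KO day 6 gave 6 higher and 4 lower, beside 33.6% and 37.5% of all genes, with Acta2, smooth muscle actin, at 2.87 (adjusted p = 1.69e-14), Cnn2 at 1.32 (adjusted p = 8.45e-16), Tpm1 at -1.20 (adjusted p = 8.13e-14) and Srf itself at -0.71 (adjusted p = 4.58e-08). In the hypomorph against the KO at day 6, 7 were higher and 2 lower, beside 37.7% and 27.0% of all genes, with Srf at 1.89 (adjusted p = 2.78e-16), Tpm1 at 0.93 (adjusted p = 4.15e-11), Actg1 at 0.86 (adjusted p = 1.99e-12) and Tpm4 at 0.74 (adjusted p = 2.29e-10). The interaction passed as higher for 10 of 12, as it did with edgeR and DESeq2, each with 1 lower, and for 8 with 1 lower when scaled to the library total. Of all genes 27.4% passed the interaction as higher and 18.2% as lower. The immediate early genes gave 4 higher and 5 lower of 11 at KO day 6, beside 33.6% and 37.5% of all genes. At hypomorph day 6 they gave 4 higher and 7 lower, beside 35.9% and 31.3% of all genes. At KO day 6 Fosl1, an AP-1 subunit, was -2.11 (adjusted p = 5.25e-12) and Atf3, a stress factor, 2.95 (adjusted p = 8.40e-11). In the hypomorph against the KO at day 6 Jun was 1.57 (adjusted p = 2.03e-12) and Junb -1.12 (adjusted p = 1.81e-10).

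**Figure D4:**
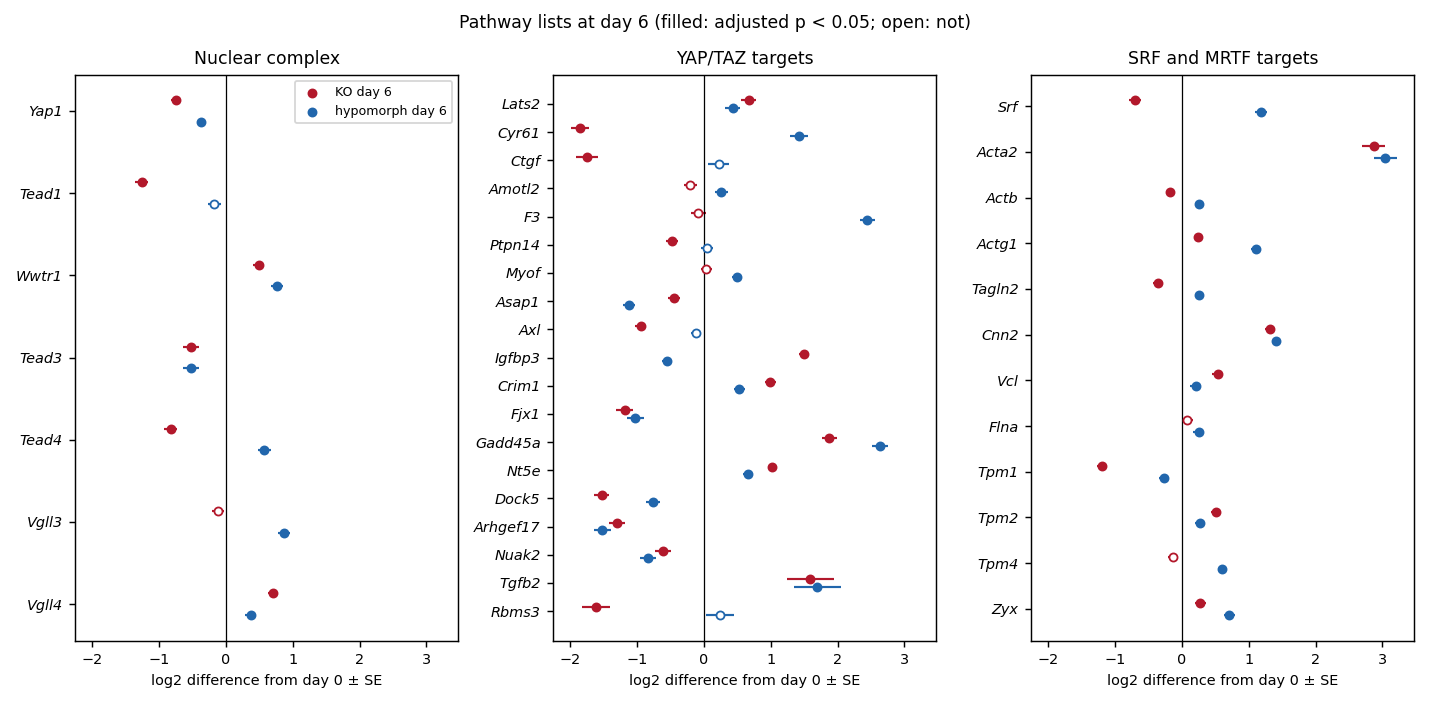
Log2 difference from day 0 of each gene of 3 lists at KO day 6 and hypomorph day 6, members included; bars are standard errors and filled points have an adjusted p under 0.05. Of the SRF and MRTF targets 11 of 12 are above 0 and filled at hypomorph day 6, and Tpm1 is below 0.

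Poly(A) site use was deposited as 1 ratio per gene and group, proximal over distal, with no replicate values, so the depth and the spread are unknown. The deposited hypomorph ratios mostly equalled those of the KO and were not used. Only the authors' calls are given for the hypomorph, and whether the same fault touches those calls is unknown. The shares given here are proximal over proximal plus distal. Of the members 3 were in the authors' deposited table, Yap1, Tead1 and Ajuba, and at KO day 4 each had a higher proximal share than at day 0. The proximal share of Yap1 was 7.07% at day 0 and 62.2% in the KO, that of Tead1 0.680% at day 0 and 36.2% in the KO and that of Ajuba 1.48% at day 0 and 19.8% in the KO. The deposited ratios were 0.0760 and 1.64 for Yap1, 0.00685 and 0.568 for Tead1, and 0.0150 and 0.247 for Ajuba. At day 0 all 3 had a proximal share below the median over all genes, which was 17.5%. The median share in the KO, taken separately, was 62.1%. The change in share was 55.1 percentage points for Yap1, 35.5 for Tead1 and 18.3 for Ajuba, beside a median of 19.8 over all genes with quartiles of 2.56 and 46.7. Yap1 was thus above the upper quartile, Tead1 between the median and that quartile, and Ajuba just below the median. The authors called all 3 Short in the KO, as they did 49.4% of the 4324 genes listed. In the hypomorph they called Yap1 Short and not Tead1 or Ajuba, beside 942 of the 4324 genes called Short there. Of the 39 genes on the lists used here that were in the table, 26 were called Short in the KO, among them Wwtr1, whose share was 55.3% at day 0 and 94.6% in the KO, and Sav1, whose share was 24.9% at day 0 and 95.8% in the KO. In the mRNA libraries of KO day 4, Yap1 and Tead1 were lower and Ajuba was 0.13 ± 0.08, adjusted p = 0.178, which did not pass. Whether the shift in poly(A) site changed the reads counted for a gene was not tested, so fewer transcripts and shorter ones cannot be told apart.

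**Figure D5:**
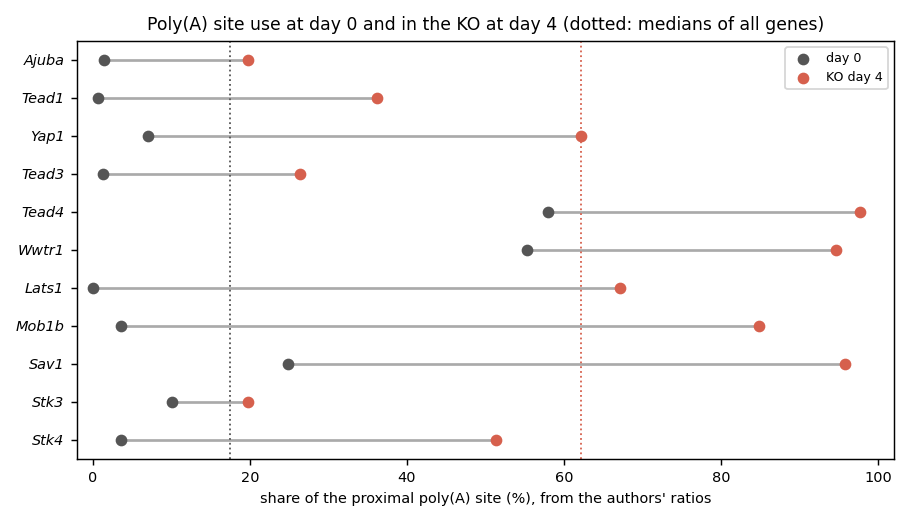
Share of poly(A) site use at the proximal site, in percent, at day 0 and KO day 4 for the 3 members listed and for other genes of the kinase core and nuclear complex, 11 genes in all, from the authors' deposited ratios; dotted lines are the medians of all genes. Yap1 lies at the KO median, and Tead1 and Ajuba lie below it.

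The genes with the profile most like each member were found over the 6 group means, among 9770 genes averaging 5 scaled CPM or more, by the root-mean-square difference of centred log2 values. Yap1 was nearest to Eefsec (0.0369), Clcc1 (0.0422), Tada2a (0.0476). Tead1 was nearest to Cav1 (0.0385), Dbt (0.0412), Stub1 (0.0581), of which Cav1 encodes caveolin, a membrane coat protein. Lats2 was nearest to Iqgap1 (0.0338), Ankrd50 (0.0464), Cltc (0.0478), and Iqgap1 is a scaffold of the actin cytoskeleton. Amotl2 was nearest to Rubcn (0.0627), Manea (0.0628), Nek1 (0.0663), and Ajuba to Sap30l (0.0305), Qrich1 (0.0379), Zfp60 (0.0404). Ctgf was nearest to Cmss1 (0.103), Hbegf (0.143), Prss12 (0.167), of which Hbegf is a growth factor of the EGF family that stood at 54.9 scaled CPM at day 0, 17.9 at KO day 6 and 53.8 at hypomorph day 6. Cyr61 and F3 had no near match: Cyr61 was nearest to Epdr1 (0.262), Nrg2 (0.312), Ube2e2 (0.339) and F3 to Grb10 (0.219), Plekho2 (0.345), Steap1 (0.358). Among the members themselves, Lats2 and Ajuba (0.212) and Yap1 and Tead1 (0.240) were closest and Cyr61 and F3 stood at 0.679. All of these rest on the same 18 libraries and describe likeness only.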

How the data were processed

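Poly(A)-selected mRNA libraries of 18 samples in 6 groups of 3 were used; the small RNA libraries were not used here. Per the submitters' processing notes, reads were aligned with STAR and assigned with featureCounts, on mm10 for mRNA and mm9 for poly(A) sites, with edgeR among the tools and no versions given. The deposited mRNA values are a signal: the authors' CPM, scaled by factors of their own, with column totals of 910422 to 1170229. The analysis had assumed plain CPM, and the same test was kept. The deposited comparison tables hold log2 changes and adjusted p-values, and the poly(A) table, per the file headers, a ratio per group, a ratio of ratios and the authors' calls.

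limma 3.58.1 (R 4.3.3; trend, robust, two-sided) was run on log2(value + 0.5) for genes at 1 or more in at least 3 libraries (12344 of 12348), in 1 fit without a replicate block, with an adjusted p under 0.05 as the threshold. Whole reads were recovered: 100% of values lay within 0.1 of a whole read, and edgeR 4.0.16 on them called 8791 genes at KO day 6. DESeq2 1.42.0 was an alternative. The fit was checked on simulated reads drawn from day 0 levels with a single common spread and planted changes. That check does not cover spreads that differ between groups. Libraries of the same number deviated together (all 3 correlations over 0.1) only between day 0 and KO day 4, at 0.365, 0.709 and 0.270, of 15 pairs of groups, and the labels give the numbers no shared source. The members and lists were chosen with earlier results of these data known. From each list the 4 genes with the smallest p at KO day 6 and the 4 in the hypomorph against the KO at day 6 could be named, and for each member the 3 genes with the most similar profile.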

Additional observations from a re-analysis of the deposited data

Results flagged for a closer look

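For 5 members the difference between hypomorph and KO changed from day 4 to day 6, by the limma interaction test with adjustment over all genes. The change on the log2 scale was 2.95 for F3, 2.75 for Cyr61, 1.90 for Ctgf, 0.57 for Tead1 and 0.38 for Amotl2. F3 was lower in the hypomorph than in the KO at day 4 (-0.43, adjusted p = 0.00723) and higher at day 6 (2.53, adjusted p = 1.69e-16). All 3 hypomorph libraries lay below all 3 KO libraries at day 4 and above them at day 6. Ctgf differed by 0.06 at day 4 (adjusted p = 0.821) and by 1.97 at day 6. Without the Alb libraries the change was 2.90, adjusted p = 7.65e-09 for F3, 2.57, adjusted p = 7.33e-06 for Cyr61, 2.09, adjusted p = 1.48e-04 for Ctgf, 0.58, adjusted p = 0.0544 for Tead1 and 0.27, adjusted p = 0.354 for Amotl2.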

How the results depend on the processing

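Of 1808 alternatives of the 88 results for single members, 1667 kept their direction and their side of the threshold, 67 lost a call, 44 gained one and 30 changed sign, none of these 30 called either way. The calls of Cyr61, Ctgf, Tead1, Yap1 and Lats2 at KO day 6, of Cyr61, F3, Yap1 and Lats2 at hypomorph day 6, and of Cyr61, Ctgf and F3 in the interaction held in every alternative run. The number of members called at KO day 2, 1 in the report, was 2 with a filter of 5 scaled CPM, 0 with TMM scaling, 0 with edgeR, 3 with the compared groups alone, 2 with the replicate block, 0 with depth as a covariate, 0 without the Alb libraries and 0 when scaled to the library total, a scaling chosen after seeing the data. Leaving out 1 library gave 0 to 3 there, 2 to 4 at hypomorph day 4 (4 in the report) and 3 to 5 in the hypomorph against the KO at day 4 (5 in the report). The Alb libraries left out, the counts were 2 at hypomorph day 4, 1 in the hypomorph against the KO at day 4, 3 for KO day 6 against day 4 (6 in the report) and 3 for the interaction (5 in the report). At KO day 4 against day 0 the replicate block called the same 6 members. It changed no other count of members by over 1.5 times; 10 of 45 pairs of same-numbered libraries had a correlation over 0.1, and 4 of 18 libraries were closest to their own number.

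These are the log2 differences that changed sign. Without the Alb libraries, Tead1 (KO day 2) was 0.048, Cyr61 (KO day 2) was 0.12, Ajuba (hypomorph day 6) was 0.028 and Ctgf (hypomorph against KO at day 4) was -0.066. With TMM scaling, Ctgf (KO day 4) was -0.0049 and Lats2 (the interaction) was -0.014. With depth as a covariate, Ctgf (KO day 4) was -0.057. Scaled to the library total, Tead1 (hypomorph day 6 against day 4) was -0.045, Ctgf (hypomorph day 6 against day 4) was -0.024, Yap1 (the interaction) was -0.13 and Lats2 (the interaction) was -0.15. With edgeR, Lats2 (the interaction) was -0.031. With DESeq2, Lats2 (the interaction) was -0.033. Thinned to the shallowest library, Lats2 (the interaction) was -0.016. Leaving out 1 library gave Yap1 (KO day 2) -0.10 to 0.0076, Tead1 (KO day 2) -0.14 to 0.032, Cyr61 (KO day 2) -0.19 to 0.033, Ctgf (KO day 4) -0.048 to 0.13, F3 (KO day 6) -0.24 to 0.064, Lats2 (hypomorph day 4) -0.039 to 0.13, Ctgf (hypomorph day 4) -0.012 to 0.15, Ajuba (hypomorph day 6) -0.13 to 0.039, Ctgf (hypomorph against KO at day 4) -0.058 to 0.14, Ajuba (KO day 6 against day 4) -0.033 to 0.060, Ctgf (hypomorph day 6 against day 4) -0.058 to 0.35, Lats2 (the interaction) -0.040 to 0.17. The cause was not tested.

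Counts over all genes moved by over 1.5 times without the Alb libraries at KO day 2 (2342 to 1071), KO day 4 (5675 to 2803), hypomorph day 4 (3908 to 2001), hypomorph against KO at day 4 (3026 to 1118), KO day 4 against day 2 (3916 to 1523), KO day 6 against day 4 (7366 to 4454) and the interaction (5636 to 3481), where fewer libraries were fitted. KO day 2 gave 1149 with depth as a covariate and 1382 to 1554 when day 0 replicate 1, or replicate 1 or 3 of KO day 2, was left out. The split of higher and lower at KO day 2, 1442 and 900, became 1117 and 1235 with TMM scaling, 1117 and 1318 with edgeR, 407 and 742 with depth as a covariate, 521 and 550 without the Alb libraries and 984 and 1373 by library total. By library total the split became 3444 and 5079 at hypomorph day 6 (4437 and 3861 in the report), 3292 and 4848 in the hypomorph against the KO at day 6 (4651 and 3337), 2134 and 1905 from KO day 2 to 4 (1587 and 2329), 2972 and 4958 from hypomorph day 4 to 6 (3938 and 3698) and 2138 and 3637 in the interaction (3385 and 2251).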
